A study of Mus musculus with 48 samples.

Results

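Heat shock protein genes were followed in single-cell RNA from 5 organs of mice with collagen-induced arthritis (CIA) and of healthy mice. The group comprised 10 of the 34586 genes of the count table and was chosen by name: *Hspa1a*, *Hspa1b*, *Dnajb1*, *Hsph1* and *Hsp90aa1*, called inducible here, *Hspa8*, *Hsp90ab1*, *Dnaja1* and *Hspe1*, called constitutive, and *Hspa5*, the member of the endoplasmic reticulum (ER). All mice were male DBA1/J mice 8 to 12 weeks old. The 6 CIA mice had been immunised with bovine collagen II in complete Freund's adjuvant and boosted on day 20, and the 4 healthy mice had been injected with saline. Joint, lung, muscle, skin and spleen gave 48 samples, 3 healthy and 5 CIA in joint and 4 healthy and 6 CIA in each other organ. Among the CIA mice, S1, S2 and S3 had a total arthritis score of 8 and S5, S6 and S8 a score of 5 or less. The labels also name 2 experiments, 2CIA (H3, S1, S2, S3) and CIA (H4, H6, H7, S5, S6, S8), so severity and experiment cannot be told apart in the CIA mice.

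Heat shock proteins are chaperones, which bind unfolded or partly folded proteins and help them to fold, to assemble or to be degraded. When proteins unfold, as in heat, the transcription factor HSF1 is released and binds arrays of inverted nGAAn units in the promoters of its target genes, whose transcripts then accumulate quickly. The HSP70 genes *Hspa1a* and *Hspa1b* are the classical targets, whereas their relative *Hspa8* is made at all times, and *Hspa5*, which encodes the ER chaperone BiP, answers to the unfolded protein response of the ER. Enzymatic dissociation of tissue is also known to raise heat shock and immediate early transcripts. How cells were freed therefore belongs to the description of these samples. All organs had been frozen and were thawed at 37 °C. Spleen was pressed through a strainer and its red cells were lysed, without enzyme. The other organs were minced and digested with DNase I and collagenase, at 1.5 mg/mL of collagenase IV for joint, 1.8 mg/mL of collagenase IV for lung, 2 mg/mL of collagenase II for muscle and 2.6 mg/mL of collagenase I for skin. The labels give 120 min of digestion for these 4 organs, and the study's sample list gives a shorter time for skin. That list also names red cell lysis for the muscle of H6, H7, S2, S3, S6 and S8. Each enzyme mix belonged to 1 organ, so that organ and digestion cannot be told apart.

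The table held unique molecular identifiers (UMIs) per gene of 13240 cells, of which 12096 carried a deposited cell type out of 13. Annotated cells of a sample had 17748 to 1645734 UMIs in all, from 30 to 1989 cells, and the median cell of a sample had 512 to 933 UMIs. Levels are given as CPM, the UMIs of a gene divided by all UMIs of the sample and scaled to a total of 1000000, so a low level in a small sample rests on few molecules. Since each UMI stands for 1 captured transcript end, CPM were not divided by gene length. Of 13164 barcodes, 59 occurred in more than 1 library, in 135 cells. For 8 of the 13 cell type labels, their own defining markers were highest in the cells so labelled. This did not hold for dendritic cells, monocytes, neutrophils and T cells, nor for myocytes, whose 5 muscle markers summed to 22.5 CPM and of whose 1625 cells 1492 came from the muscle of S6.

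The promoters of 4 members are shown first. They hold letter matches to motifs through which the heat shock and ER responses are known to act. Each is the 150 bases before the RefSeq transcription start in GRCm38.p6, 5′ to 3′ on the strand of the gene, and capitals mark the fixed letters of the motifs found, which are heat shock units in the first 3 and the ER element in *Hspa5*.
Hspa1a, chr17:34972157-34972306, minus strand: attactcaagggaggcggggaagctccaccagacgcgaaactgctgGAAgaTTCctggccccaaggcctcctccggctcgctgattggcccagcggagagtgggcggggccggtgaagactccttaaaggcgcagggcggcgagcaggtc
Hspa1b, chr17:34959239-34959388, minus strand: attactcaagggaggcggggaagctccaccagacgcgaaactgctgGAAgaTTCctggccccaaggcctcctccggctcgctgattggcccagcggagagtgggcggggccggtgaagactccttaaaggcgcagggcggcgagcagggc
Hspe1, chr1:55087998-55088147, plus strand: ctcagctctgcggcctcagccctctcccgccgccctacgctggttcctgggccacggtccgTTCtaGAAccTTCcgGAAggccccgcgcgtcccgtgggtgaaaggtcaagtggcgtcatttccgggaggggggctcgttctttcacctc
Hspa5, chr2:34771940-34772089, plus strand: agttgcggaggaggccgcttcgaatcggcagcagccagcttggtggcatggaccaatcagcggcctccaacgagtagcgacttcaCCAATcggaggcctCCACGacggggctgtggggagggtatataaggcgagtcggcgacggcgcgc

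The promoters of *Hspa1a* and *Hspa1b* were almost the same sequence, with 247 of the 250 bases before the start identical (98.8%). Each held 1 pair of units, GAANNTTC, whose first base lay at -104 from the start. GAANNTTC, which reads the same on both strands, was found in 6.69% of the 32851 promoters of the table over the same 250 bases. The promoter of *Hspe1* held 2 overlapping runs of 3 units, GAANNTTCNNGAA or TTCNNGAANNTTC on the other strand, a motif found in 0.466% of promoters. TTCNNGAA, the other arrangement of a pair, was found in 7.17% of promoters. Both promoters of *Hsph1* held it, and as these overlap, -54 and -33 are the same site counted from either start. *Dnaja1* held GAANNTTC at -124 in 1 of its 3 promoters, and neither promoter of *Dnajb1* held any of these motifs. *Hspa5* held the ER stress response element, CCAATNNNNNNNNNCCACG, at -65, which was found on either strand in 0.113% of promoters. These are matches of letters only. *Hspa8*, *Hsp90aa1* and *Hsp90ab1* had no promoter in the table.

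In GRCm38, *Hspa1a* (chromosome 17, 34969190 to 34972156, minus strand) and *Hspa1b* (chromosome 17, 34956436 to 34959238, minus strand) lie side by side. *Hsp90ab1* lies on the same chromosome (45567775 to 45573271, minus strand) and *Hsp90aa1* on chromosome 12 (110690605 to 110702728, minus strand). *Hspa8* is on chromosome 9 (40800984 to 40810087), *Hspa5* on chromosome 2 (34771970 to 34777547), *Hspe1* on chromosome 1 (55088132 to 55091307), *Dnajb1* on chromosome 8 (83608193 to 83612653) and *Dnaja1* on chromosome 4 (40722150 to 40737149), all on the plus strand, and *Hsph1* on chromosome 5 (149614287 to 149636376, minus strand). Near copies limit some of these counts. *Hspa1a* and *Hspa1b* shared 58.8% and 62.3% of their 50-base windows, but 0 windows in the last 500 bases of the transcript, where most reads of this 3′ method fall. For *Hspa8*, 10 processed pseudogenes in the table held 5467 UMIs against 2702 for the gene itself, 66.9% of the sum, and the largest of them, *Gm15459*, shared 64.4% of the windows of *Hspa8*. Pseudogenes held 21.5% of the sum for *Hsp90aa1*, 9.62% for *Hsp90ab1*, 8.50% for *Dnaja1* and 5.04% for *Hspe1*. No pseudogene of the other 5 genes was found in the table. The level of *Hspa8* is therefore uncertain, and its values are those assigned to the gene.

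The most abundant member was *Hspa5* with 19551 UMIs, followed by *Hsp90ab1* (15095) and *Hsp90aa1* (7261), both cytosolic HSP90 chaperones, and by *Dnaja1* (5977), a co-chaperone of the HSP40 family. *Hspe1*, the mitochondrial co-chaperonin HSP10, had 3035, *Hspa1a* 2614, *Hspa1b* 2089, *Dnajb1*, another HSP40, 1868, and *Hsph1*, the HSP110 that exchanges the nucleotide of HSP70, 1040 UMIs. Constitutive members were steadier over the 48 samples than the inducible HSP70 genes. The coefficient of variation was 83.5% for *Hspa1a* and 82.5% for *Hspa1b*, against 17.2% and 18.5% that counting alone would give. It was 23.2% for *Hspa5*, 32.5% for *Hsp90ab1*, 33.3% for *Hsp90aa1*, 38.1% for *Hspa8*, 43.7% for *Dnaja1* and 47.2% for *Hspe1*. *Dnajb1* varied by 52.5% and *Hsph1* by 72.8%, of which counting alone would give 26.4% and 33.5%.

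**Figure D1:**
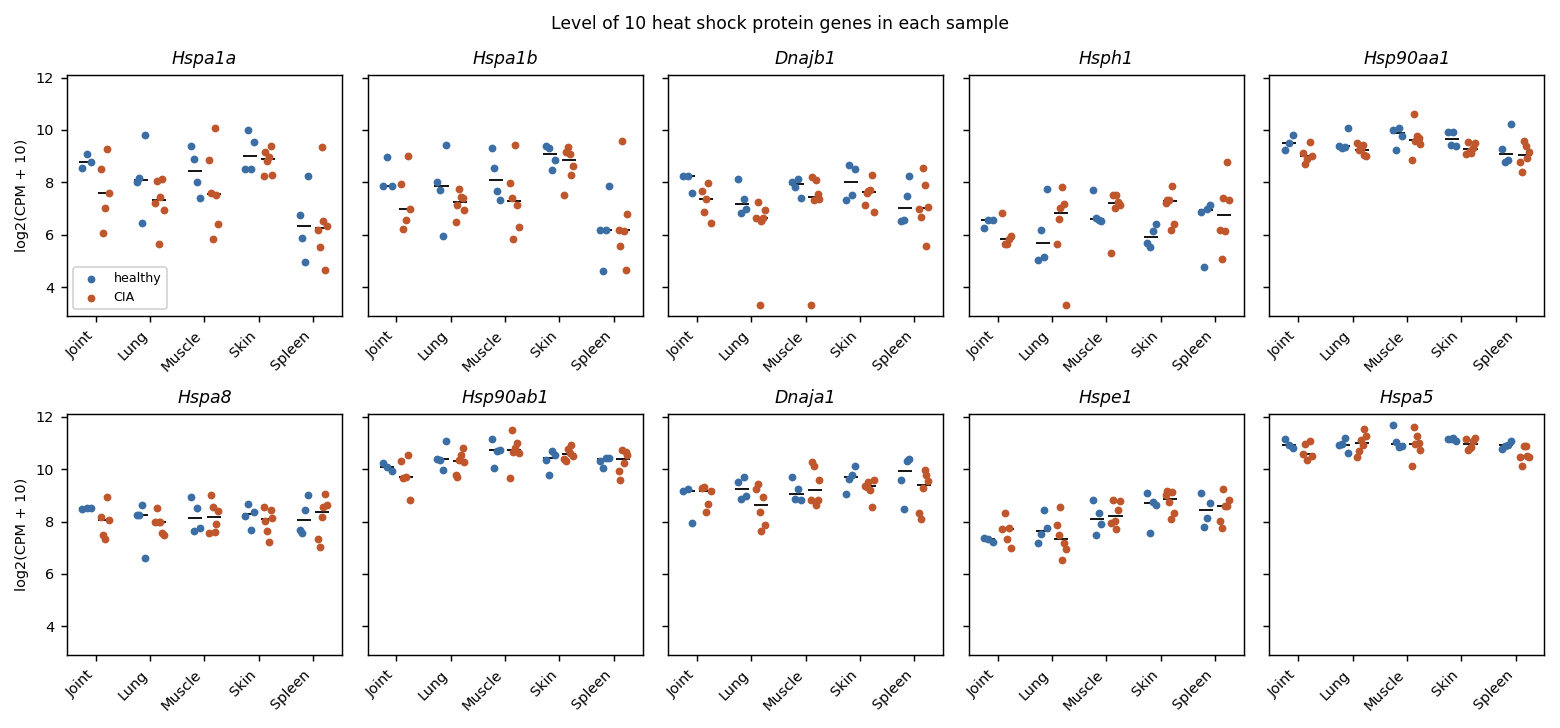
Level of the 10 genes in each of the 48 samples, as log2(CPM + 10), by organ, with healthy mice in blue, CIA mice in orange and a bar at each group's median. *Hspa1a* and *Hspa1b* have the highest coefficients of variation in CPM (83.5% and 82.5%) and their lowest medians in spleen, whereas *Hspa5* stays between 1100 and 3306 CPM.

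*Hspa1a* was lowest in spleen and highest in skin by the median, in the order skin (464 CPM), joint (361), muscle (216), lung (207) and spleen (66.2). In skin, the healthy mice H3, H4, H6 and H7 had 353, 1005, 355 and 730 CPM, and the 6 CIA mice had 296 to 667 (median 464). In joint, H3, H4 and H7 had 367, 527 and 431 CPM, and S1, S3, S5, S6 and S8 had 354, 56.7, 119, 605 and 182. The highest skin had 3.39 times the level of the lowest, against 10.7 times in joint. Of the CIA joints, that of S6 lay above the healthy ones and the rest lay below them. In muscle, H3, H4, H6 and H7 had 661, 460, 248 and 159 CPM and the CIA mice 47.8 to 1071 (median 178). In lung, they had 250, 277, 77.4 and 876 CPM and the CIA mice 40.4 to 271 (median 151). The ranges of healthy and CIA mice overlapped in all 4 of these organs, and H7 was far above the other lungs. In spleen, H3, H4, H6 and H7 had 98.8, 48.6, 21.0 and 294 CPM and the CIA mice 14.9 to 642 (median 66.2). H7 and S3 stood above the other 8 spleens, which had 98.8 CPM or less. Mouse S3 had the highest *Hspa1a* level of all spleens and the lowest of all joints, lungs and muscles, on 69, 7, 1 and 6 UMIs.

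*Hspa1b* followed *Hspa1a* from sample to sample, with a Spearman rho of 0.91 over the 48 samples and 0.75 after each sample was ranked within its organ, given as a description of samples that share mice and depth. Its medians were 494 CPM in skin, 223 in joint, 175 in muscle, 161 in lung and 62.9 in spleen. *Hspa1b* made up 23% to 83% of the UMIs of both genes in a sample, and the extremes rested on few UMIs. The next closest member to *Hspa1a* was *Dnajb1* (rho 0.60), which works with HSP70, and *Hspa8* was unrelated to it (rho 0.04). Of the genes with at least 50 CPM on average, those most like *Hspa1a* over the 48 samples were *Tsc22d1* (rho 0.75), *Nfib* (0.75), *Ptms* (0.74), *Hspb1* (0.74) and *Lmna* (0.73). Those most like *Hspa8* were *Gm15459* (0.86), which is its own pseudogene, *Gm4332* (0.71), *Eif1-ps1* (0.66), *Rps15a-ps7* (0.65) and *Rps15a-ps5* (0.64).

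*Dnajb1* had medians of 196 CPM in muscle, 188 in joint, 188 in skin, 120 in spleen and 108 in lung, and no UMI in the lung of S3 or the muscle of S1, where 3 UMIs would be 121 and 89.2 CPM. *Hsph1* was the sparsest member, with medians of 59.4 CPM in joint to 126 in muscle and 29.7 to 197 CPM in muscle samples. One spleen, that of S6, had 433 CPM of *Hsph1* against at most 158 in the other 9. *Hsp90aa1* ranged from 328 CPM in the spleen of S2 to 1549 in the muscle of the same mouse, with medians from 522 in spleen to 831 in muscle. Among the constitutive members, *Hsp90ab1* had medians of 1014 CPM in joint to 1673 in muscle, *Dnaja1* of 486 in lung to 751 in spleen and *Hspa8* of 246 in lung to 313 in joint. For *Hspa8*, 3.1% of the variance on the log2 scale lay between organs and 92.8% between mice of the same group and organ. *Hspe1* had the most variance between organs, 47.0%, against 36.6% for *Hspa1a* and 16.1% for *Hspa5*.

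To set inducible against constitutive members, the UMIs of the 5 inducible genes were divided by those of the 4 constitutive genes in each sample. Both names are labels and not findings. *Hspe1*, counted as constitutive, held the motif of 3 heat shock units and had the most variance between organs (47.0%). The log2 ratio was below 0 in most samples, since *Hsp90ab1* and *Dnaja1* are abundant, and it was lowest in spleen. Its median was -1.48 in spleen (SD 0.51, n = 10), -0.85 in lung (SD 0.39, n = 10), -0.76 in muscle (SD 0.57, n = 10), -0.56 in joint (SD 0.50, n = 8) and -0.56 in skin (SD 0.39, n = 10). In spleen, S3 (-0.24) and H7 (-0.78) had the highest ratios. In the other organs the highest ratios were 0.09 in the joint of H7, 0.00 in the lung of H7, 0.24 in the muscle of S5 and 0.30 in the skin of H4, and the lowest were those of S3 in joint (-1.51) and muscle (-1.57). *Hsp90aa1*, which is also well expressed without stress, held much of the sum of the inducible genes, and without it the medians were -2.77 in spleen, -2.05 in muscle, -1.88 in lung, -1.33 in joint and -1.11 in skin. When each cell type had an equal weight, the medians were -1.41 in spleen, -0.82 in lung, -0.61 in muscle, -0.56 in joint and -0.56 in skin. The place of spleen at the low end was the same in all of these, and it was also so with the pseudogene UMIs added (-1.62 against -1.08 to -0.80 in the other organs).

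**Figure D2:**
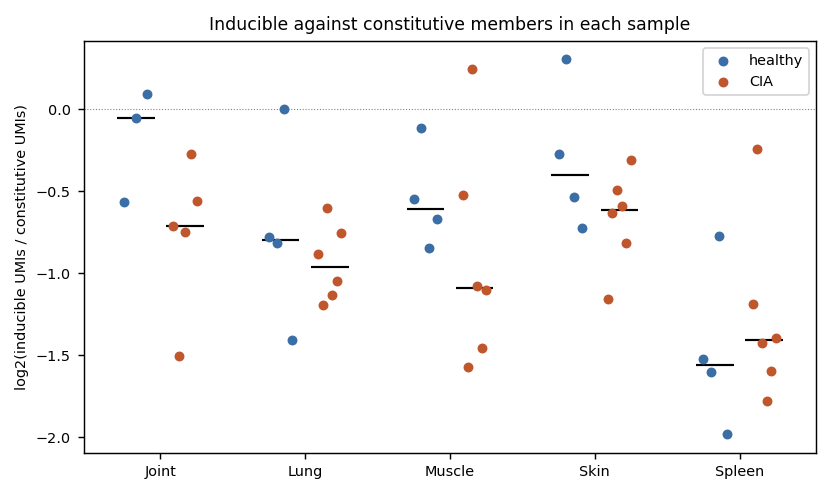
Log2 ratio of the UMIs of the 5 inducible genes to those of the 4 constitutive genes in each sample, by organ, with healthy mice in blue, CIA mice in orange and a bar at each group's median. The medians are lowest in spleen, at -1.56 in healthy and -1.41 in CIA mice, while single spleens overlap with other organs, that of CIA mouse S3 being the highest spleen at -0.24.

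Organs were compared pairwise with edgeR's quasi-likelihood test on the UMI sums of all annotated cells of a sample, with adjusted p-values by the method of Benjamini and Hochberg over all genes tested and a threshold of 0.05. Of 100 tests of members over the 10 pairs of organs, 17 passed the threshold, against 28.8% of 34660 tests of all genes. The calls fell on *Hspe1* (5 pairs), *Hspa1a* and *Hsp90aa1* (3 each), *Dnajb1* and *Hsp90ab1* (2 each), *Hspa1b* and *Dnaja1* (1 each), and *Hspa8*, *Hspa5* and *Hsph1* had none. The mouse as a block gave 17 calls as well. An organ sum mixes cell types, so that fewer cells of a type and less RNA per cell cannot be told apart.

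The HSP70 genes were higher in skin than in spleen, where 44.8% of all genes tested were called and 2 of the 10 members. *Hspa1a* was higher in skin by a log2 value of 1.79 (SE 0.51, adjusted p = 0.00284) and *Hspa1b* by 1.67 (SE 0.50, adjusted p = 0.00478), in both cases with any mouse left out. Among CIA mice alone the differences were 1.54 (adjusted p = 0.0835) and 1.33 (adjusted p = 0.12). *Hspa1a* was also higher than in spleen by 1.51 in muscle (SE 0.50, adjusted p = 0.0289) and by 1.38 in joint (SE 0.53, adjusted p = 0.0366). These calls were lost without any one of H3, H4, H6, S1, S5 or S6 for muscle and of H3, H4, H6, S1, S2, S6 or S8 for joint. Between spleen and lung the difference of *Hspa1a* was 0.74 (95% interval -0.35 to 1.83, adjusted p = 0.299). Neighbours in the order skin, joint, muscle, lung and spleen did not pass the test for *Hspa1a*, with adjusted p-values of 0.619, 0.917, 0.291 and 0.299.

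How far the HSP70 genes of spleen stood apart depended on mouse S3. This mouse had the highest *Hspa1a* of the spleens and the lowest of the joints, lungs and muscles, so leaving it out moved both sides of those contrasts. Without the samples of S3, 22 of 100 member tests passed, beside 17 with all mice, where 28.8% of the tests of all genes were called. The share of all genes without S3 is not given here, so the rise is not read as particular to the members. Both HSP70 genes were then higher than in spleen in each of the 4 digested organs. *Hspa1a* was then higher than in spleen by 2.51 in skin (SE 0.43, adjusted p = 4.1e-06), 2.36 in muscle (SE 0.43, adjusted p = 4.97e-05), 2.22 in joint (SE 0.45, adjusted p = 9.78e-05) and 1.58 in lung (SE 0.45, adjusted p = 0.00515). *Hspa1b* was higher by 2.502 in skin, 2.09 in muscle, 1.94 in joint and 1.30 in lung, the last with an adjusted p of 0.0211. Mouse S3 was left out after its values were seen, as 1 of the 10 mice that were each left out.

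**Figure D3:**
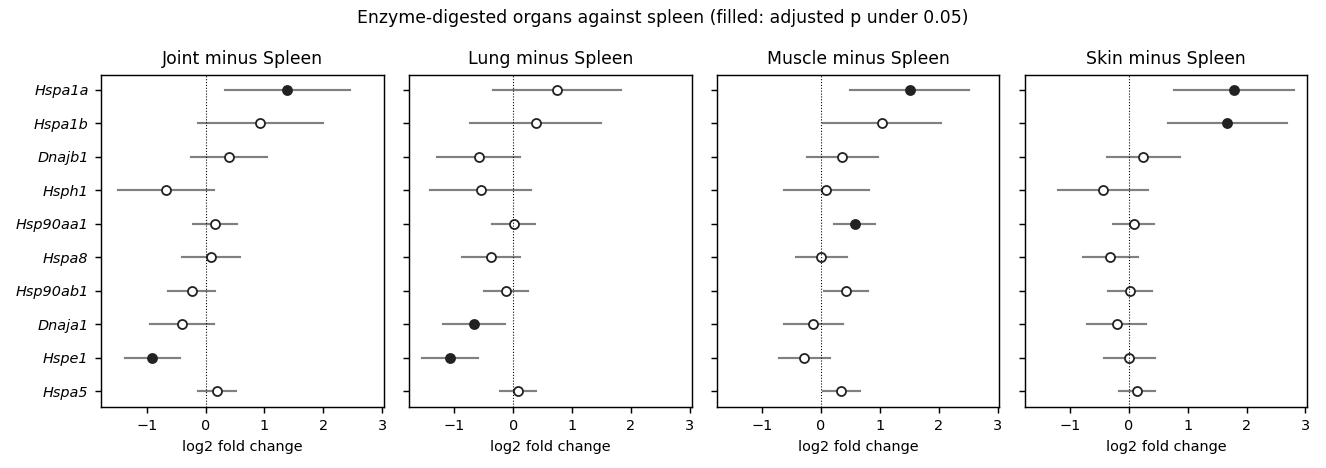
Log2 fold change of each gene in the 4 enzyme-digested organs against spleen, over all annotated cells, from edgeR. Points are estimates and lines 95% intervals, and filled points have an adjusted p under 0.05, as for *Hspa1a* in skin at 1.79.

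*Hspe1* divided the organs in another way. The healthy joints of H3, H4 and H7 had 156, 150 and 139 CPM and those of S1, S3, S5, S6 and S8 had 200, 308, 151, 207 and 117. The lungs had 82.0 to 363 CPM (median 173, n = 10), the skins 179 to 558 (median 418, n = 10) and the spleens 204 to 595 (median 375, n = 10). *Hspe1* was thus lower in joint and lung than in skin and spleen, with overlap of single mice. The log2 differences were -0.92 for joint against skin (SE 0.24, adjusted p = 0.00209), -0.91 for joint against spleen (SE 0.23, adjusted p = 0.0017), -1.09 for lung against skin (SE 0.24, adjusted p = 0.000263) and -1.08 for lung against spleen (SE 0.24, adjusted p = 0.000243). All 4 held with any mouse left out, as did lung against muscle (-0.80, SE 0.24, adjusted p = 0.00917). *Hspd1*, the chaperonin that HSP10 closes, was also lower in joint than in skin (-1.26, adjusted p = 0.00023) and in lung than in skin (-0.90, adjusted p = 0.00778).

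Muscle had more of both HSP90 genes than some other organs. Between lung and muscle, 27.3% of all genes were called and 4 of the 10 members, all lower in lung. These were *Hspe1*, *Dnajb1* (-0.95, SE 0.35, adjusted p = 0.0334), *Hsp90aa1* (-0.56, SE 0.18, adjusted p = 0.0156) and *Hsp90ab1* (-0.55, SE 0.19, adjusted p = 0.0236). The *Dnajb1* call was lost without any one of H4, H6, H7, S2, S5, S6 or S8, and that of *Hsp90aa1* with pseudogene UMIs added (adjusted p = 0.0502). *Hsp90aa1* was also higher in muscle than in spleen (0.57, adjusted p = 0.0165) and skin (0.49, adjusted p = 0.0243), and *Hsp90ab1* was lower in joint than in muscle (-0.66, adjusted p = 0.022). The muscle of S2 had the most of both, 1549 and 2849 CPM, and without S2 neither gene passed in these pairs. *Dnajb1* was higher in joint than in lung (0.99, adjusted p = 0.049), a call that was kept only with all mice or without H3 and lost with the mouse as a block (adjusted p = 0.0701). *Dnaja1* was lower in lung than in spleen (-0.67, adjusted p = 0.0397), and this call was lost without any one of H6, H7, S3, S5, S6 or S8, and with pseudogene UMIs added (adjusted p = 0.08). *Hspa5* passed in no pair of organs, with log2 differences of at most 0.35 in size.

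Levels also differed by cell type, and the organs differed in their cells. For *Hspa1a* and *Hspa1b* together, samples with at least 10 cells of a type had a median of 1300 CPM in endothelial cells (n = 10 samples), 1087 in basal III cells of the epidermis (n = 12) and 823 in fibroblasts (n = 23). Macrophages had 298 CPM (n = 26), and B cells (194, n = 12), monocytes (194, n = 11), T cells (189, n = 19) and NK cells (166, n = 13) were close to each other. Granulocytes had 126 CPM (n = 11), dendritic cells 81.3 (n = 8) and erythrocytes 27.0 (n = 7). The range of each type was wide, 82.7 to 2527 CPM in fibroblasts and 0 to 1645 in T cells, so that neighbours in this order overlapped. Endothelial cells and fibroblasts were found in joint, muscle and skin. Basal III cells reached 10 cells in skin and in the joints of H4 and S1 only. No spleen or lung had 10 cells of any of these 3 types. Endothelial cells also had the highest ratio of inducible to constitutive members, with a median of -0.05, against -0.41 in fibroblasts, -0.45 in basal III cells, -1.17 in T cells, -1.46 in B cells and -1.67 in NK cells. Beyond HSP70, with each sample weighted equally, *Hsp90ab1* had its highest medians in cells labelled myocytes (2202 CPM, n = 4) and T cells (2141, n = 19). Neither label had its own markers highest in its cells, and those labelled myocytes had few muscle markers. *Hsp90aa1* was highest in T cells (957) and fibroblasts (931), and *Hspa5* in fibroblasts (2884) and endothelial cells (2679). *Hspe1* was highest in basal III cells (462) and T cells (460), and *Hspa8* was alike in T cells (327), endothelial cells (326) and B cells (323). Granulocytes had the lowest medians of *Hsp90ab1* (292), *Hsp90aa1* (209), *Hspe1* (41.7) and *Hsph1* (13.9).

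Within a cell type, few differences of members between organs passed the test. Over 14 contrasts in 6 cell types, with at least 10 cells per mouse, 3 of 104 member tests passed, against 7.28% of the 12057 tests of all genes. *Hsp90aa1* and *Dnaja1* were lower in joint than in skin fibroblasts, by -0.82 (SE 0.26, adjusted p = 0.0194) and -0.89 (SE 0.30, adjusted p = 0.027), and *Dnaja1* was higher in joint than in spleen granulocytes, by 1.68 (SE 0.51, adjusted p = 0.0464). With the mouse as a block both fibroblast calls were lost (adjusted p = 0.235 and 0.292), the granulocyte contrast was not fitted with it, and none of the 3 was kept without H4. With pseudogene UMIs added the granulocyte call was lost (adjusted p = 0.0616). The HSP70 genes did not pass in these fits, but *Hspa1b* of fibroblasts depended on the setting. It was lower in joint than in skin by -0.96 (SE 0.40, adjusted p = 0.0724), and passed with DESeq2 (-0.9995, adjusted p = 0.0283), with at least 5 cells per mouse (-1.10, adjusted p = 0.024) and with at least 20 (-0.89, adjusted p = 0.046). *Hspa1a* of endothelial cells passed between muscle and skin with at least 5 cells per mouse (2.45, adjusted p = 0.0312), and at the limit of 10 cells skin had 1 sample. In fibroblasts, *Hspa1a* had medians of 352 CPM in joint (n = 6), 494 in muscle (n = 8) and 525 in skin (n = 9), and joint differed from skin by -0.76 (95% interval -1.63 to 0.11, adjusted p = 0.186). In macrophages, the medians were 194 CPM in joint (n = 7), 132 in lung (n = 10) and 198 in muscle (n = 7), and lung differed from muscle by -0.75 (95% interval -1.84 to 0.35, adjusted p = 0.297). In T cells, they were 211 CPM in joint, 157 in muscle and 46.5 in spleen (n = 6 each), and joint differed from spleen by 0.40 (95% interval -1.23 to 2.03, adjusted p = 0.889). Spleen T cells had 917 CPM in H7 (7 UMIs) and 654 in S3, and 32.0 to 51.8 in the rest. In NK cells, *Hspa1b* had 700 and 1487 CPM in the muscle of the healthy mice H6 and H7, 90.3 and 131 in that of S2 and S8, and 0 to 236 in 9 spleens. The CIA muscles lay within the range of the spleens, and muscle minus spleen was 2.27 (95% interval 1.07 to 3.47, adjusted p = 0.235) in a fit of all genes with at least 1 UMI. These intervals are wide and do not set the cell types of spleen and digested organs equal. The part of cell composition in the differences between organs was not tested.

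The high HSP70 level of the spleen of S3 was spread over its cell types. *Hspa1a* and *Hspa1b* together had 2403 CPM in its B cells, against 35.8 to 419 in the other 9 mice, and 2573 CPM in its dendritic cells, against 0 to 182 in 5 others. Its monocytes had 1155 CPM, against 0 to 490 in 9 others, and its granulocytes 635, against 21.2 and 26.9 in the other pair of mice. Its T cells had 1182 CPM, of 5 others the healthy mouse H7 had more (1442), and the rest had 41.3 to 121. In B cells, dendritic cells, monocytes and granulocytes S3 was above all other mice, with 14 to 27 cells in each. This library lay within the range of the other spleens in mitochondrial UMIs, at 9.50% (6.95% to 13.4% in the others). So did the 582.5 UMIs of its median cell (560 to 725) and its 6240 CPM of 16 immediate early genes (5141 to 12537). It also had the most *Dnajb1* (363 CPM), *Hsp90ab1* (1674) and *Hspe1* (595) of the spleens. The other spleens had up to 1614 CPM of *Hsp90ab1* and 539 of *Hspe1*. In *Hsp90aa1*, *Hspa8*, *Hsph1*, *Dnaja1* and *Hspa5* it was not the highest. The spleen of S6 was highest in other members. Its *Hsph1* was 340 CPM in B cells (19 UMIs), 978 in dendritic cells (9), 421 in monocytes (12) and 679 in NK cells (15). It was above all other mice in each, while the HSP70 level in these cells was 0 to 35.8 CPM. Its *Hspa8* was also the highest of the spleens, at 516 CPM against 507 in H7, and at 2010 against 1390 with pseudogene UMIs added. In muscle, the highest HSP70 level was that of S5, where macrophages (26 cells) had 1901 CPM (151 to 848 in 6 others). Its 132 endothelial cells had 2341 CPM (1273 to 3371 in 3 others) and its 174 fibroblasts 1268 (82.7 to 2129 in 7 others), both within the range of the other mice. This library also had the most immediate early transcripts (16323 CPM, 4394 to 13114 in the others) and the most UMIs per cell (903, 560 to 729.5 in the others). The part of these values in the level of S5 was not tested.

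**Figure D4:**
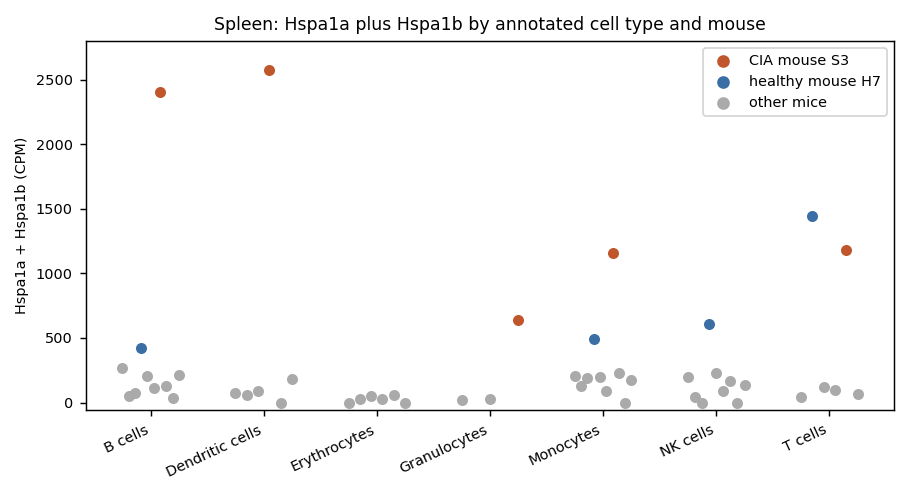
*Hspa1a* and *Hspa1b* together, in CPM on a linear axis, in the spleen of each mouse by deposited cell type, for mice with at least 10 cells of the type. CIA mouse S3 is above all other mice in B cells (2403 CPM), dendritic cells, granulocytes and monocytes, and healthy mouse H7 is highest in T and NK cells.

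CIA mice were compared with healthy mice in each organ. None of the members passed the threshold. Over all annotated cells, 0 of 46 member tests passed, against 0.365% of 11791 tests of all genes. In edgeR 3 had an unadjusted p under 0.05 (6.52%), against 7.23% of the tests of all genes. DESeq2 also called 0, with 3 at an unadjusted p under 0.05. The lowest adjusted p of a member was 0.308. The 3 tests were *Hspa1a* in lung (-1.12, SE 0.53), *Hsp90aa1* in skin (-0.43, SE 0.19) and *Hsph1* in skin (1.11, SE 0.40), with adjusted p-values of 0.308, 0.67 and 0.616. The skins of H3, H4, H6 and H7 had 40.7, 35.9, 60.2 and 74.7 CPM of *Hsph1* and those of the CIA mice 63.0 to 222 (median 144), so that S5 lay within the healthy range and S8, at 75.5 CPM, just above it. In lung, the difference of *Hspa1a* was -0.34 without H7.

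The intervals leave room for changes in either direction. In joint, the inflamed organ, *Hspa1a* differed by -0.74 (95% interval -1.92 to 0.44), *Hspa1b* by -0.67 (-1.88 to 0.55), *Hspe1* by 0.52 (-0.36 to 1.39) and *Hspa5* by -0.14 (-0.87 to 0.58). In spleen, *Hspa1a* differed by 0.30 (95% interval -1.65 to 2.24), which turned to -1.01 without S3 and was 1.26 without H7. In muscle, it differed by -0.26 (95% interval -1.90 to 1.39), and by -1.47 without S5 (adjusted p = 0.532). *Hspa5*, the steadiest member, differed by -0.34 in spleen, 0.01 in lung, -0.29 in muscle and -0.20 in skin. With the experiment as a term, and among the mice of the experiment CIA alone, 0 members passed as well, and *Hspa1a* of spleen was -1.05 in the latter. The experiment 2CIA had 1 healthy mouse and could not be tested alone.

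**Figure D5:**
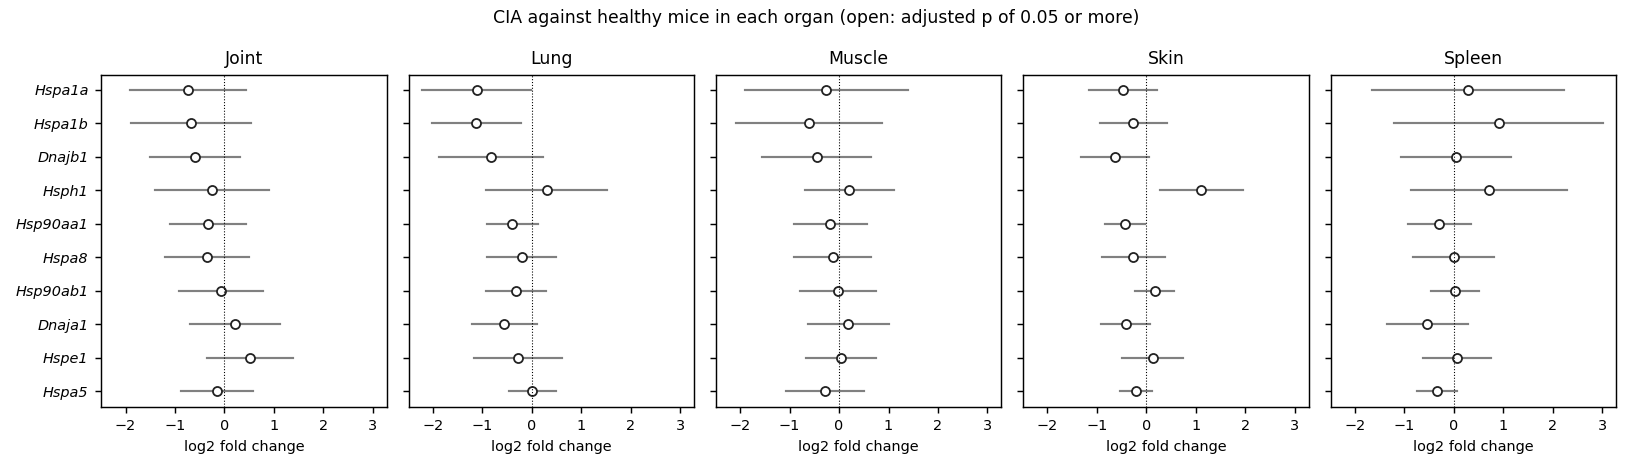
Log2 fold change of each gene in CIA against healthy mice in each organ, over all annotated cells, from edgeR, with points for estimates and lines for 95% intervals. All points are open, with an adjusted p of 0.05 or more, and the intervals of *Hspa1a* in muscle and spleen span over 3 log2 units.

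Single cell types gave the same count. In the 11 pairs of cell type and organ with at least 3 mice of each group, 0 of 70 member tests passed, against 1.34% of 8258 tests of all genes. In edgeR 1 had an unadjusted p under 0.05 (1.43%, against 8.91% of the tests of all genes), and DESeq2 called 0. Without healthy mouse H3, *Hsp90aa1* passed in joint macrophages (-1.20, adjusted p = 0.0455). The difference of the CIA effect between joint and muscle was tested by an interaction term over the 18 samples of both organs. Of the 10 members, 0 passed and 0 had an unadjusted p under 0.05, against 0.0707% and 7.33% of 4241 genes. DESeq2 called 0 members. The difference of effects, joint minus muscle, was largest in size for *Hspa1a* at -0.52 (SE 1.11, adjusted p = 0.967).

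Per cell, the inducible genes were found in a minority of cells. To compare samples of different depth, each cell was thinned at random to 400 UMIs. A UMI of *Hspa1a* or *Hspa1b* was then found in 27.4% of the cells of the median skin, 17.2% in joint, 12.04% in muscle, 9.10% in lung and 4.66% in spleen (39.3%, 27.9%, 17.9%, 12.2% and 7.98% without thinning). The shares of single samples ran from 15.4% to 46.3% in skin and from 1.34% to 34.4% in spleen, where S3 was highest, so that skin and spleen overlapped in that mouse. Erythrocytes, the type with the lowest level, had 27.0 CPM of both genes, and the part of free RNA in these shares was not tested. Of the 1550 cells with *Hspa1a*, 40.0% also had *Hspa1b*, against 6.91% of the cells without it, which is a description over cells of 48 samples that differ in level. One cell had as many as 23 UMIs of *Hspa1a*. *Hspa5* was found in 47.7% of thinned cells of the median sample and *Hsph1* in 3.50%.

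Other genes of the same pathways were read from lists. In the comparison of organs over all cells, 25 of 210 tests of other cytosolic and mitochondrial chaperones were higher and 32 lower in the first organ of a pair, of ER chaperones 24 and 11 of 150, and of immediate early genes 43 and 30 of 160. Called in either direction were thus 27.1%, 23.3% and 45.6% of the tests of these lists, beside 28.8% over all genes. Skin had more of the small heat shock protein *Hspb1* than spleen (5.35, adjusted p = 9.95e-11), more of the HSP70 co-chaperone *Bag3* (3.32, adjusted p = 6.63e-07) and of the mitochondrial HSP70 *Hspa9* (1.55, adjusted p = 1.47e-06), and less *Dnajc7* (-1.95, adjusted p = 4.09e-06). *Hspb1* and *Bag3* were also higher than in spleen in joint (5.13 and 3.19) and muscle (3.88 and 2.76). Among ER genes, *Sdf2l1* (-3.42, adjusted p = 1.69e-06) and *Ddit3* (-2.07, adjusted p = 5.16e-07) were lower in skin than in spleen, and *P4hb*, a disulfide isomerase, was higher in joint than in spleen (1.51, adjusted p = 1.87e-05). Immediate early genes did not order the organs as HSP70 did, and the part of dissociation in either order was not tested. Their summed level was 11710 CPM in the median joint, 9281 in skin, 8370 in spleen, 8116 in muscle and 6522 in lung. Against spleen, 5 of 16 were higher and 1 lower in joint, 4 and 5 in skin, 3 and 0 in muscle and 3 and 7 in lung. Of all genes, 33.8% were called in either direction in joint, 44.8% in skin, 17.2% in muscle and 37.3% in lung. Between CIA and healthy mice, 0 chaperones of these lists passed in any organ or cell type. Of the immediate early genes *Fos* alone did, lower in CIA in joint macrophages (-1.70, SE 0.31, adjusted p = 0.00997), where 10.3% of 273 genes tested were called. Over cell types, 0.82% of 122 tests of immediate early genes were called, against 1.34% of the tests of all genes.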

How the data were processed

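The authors aligned the reads of Seq-Well libraries with STAR, per the study's methods to GRCm38, kept primary alignments, counted UMIs with the Drop-seq tools and filtered cells by reads, genes and mitochondrial share. The submitters' processing notes also name bcl2fastq and Picard. The deposited values are counts of UMIs per gene and cell, without normalization, with cell type labels that the authors made from denoised counts. Here counts were summed per mouse over all annotated cells of an organ or of a cell type with at least 10 cells, and all cells were kept without doublet removal. The tests on these sums came from edgeR 4.0.16 (R 4.3.3), by quasi-likelihood (TMM factors, filterByExpr, Benjamini-Hochberg adjustment over all genes of a fit, threshold 0.05). Organ fits took all organs together with disease as a covariate. A member removed by the filter was read from a fit of all genes with at least 1 UMI and is in no count. The tests were checked on simulated data. Alternatives were DESeq2 1.42.0, RLE factors, no filter, the mouse as a block, experiment or red cell lysis as a term, other limits of cells, unannotated cells and leaving out each mouse, and, added after seeing the data, pseudogene UMIs. Near copies were found by shared 50-base windows of GENCODE transcripts, and promoters and motifs were read from RefSeq, in which 7 of the 10 genes matched. The members and lists were chosen with earlier results of these data known. Named were all members, up to 4 genes per list and comparison by fold change, and the 5 genes most like *Hspa1a* and *Hspa8*. Lists are shown above for the contrasts with spleen and a few others. The organ samples of a mouse are not independent, and their deviations from group means correlated little (median r 0.029 over 92 pairs of the same mouse, -0.0045 over 388 pairs of other mice).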

Additional observations from a re-analysis of the deposited data

Results flagged for a closer look

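In groups of 4 to 6 mice, a highest or lowest mouse was singled out by Dixon's test at the 95% level in 9 of 90 groups of gene, organ and disease, where chance would single out about 1 in 20. In spleen, CIA mouse S3 stood above the other CIA mice in *Hspa1a* (641.6 CPM) and *Hspa1b* (753.2 CPM), and S6 in *Hsph1* (433.4 CPM). In muscle, S5 was highest in *Hspa1b* (669.1 CPM) and S2 in *Hsp90aa1* (1549 CPM) among CIA mice, and S1 was lowest in *Hsph1* (29.74 CPM, 1 UMI). The healthy muscle of H3 was highest in *Hsph1* (196.6 CPM, 11 UMIs). The joint of S1 was highest in *Hsph1* among 5 CIA mice (104.9 CPM). The healthy lung of H7 was highest in *Hsp90aa1* (1081 CPM). No member differed in its disease effect between joint and muscle, and in the cells without a label none was higher in CIA mice than the upper 95% counting limit of the healthy mice.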

How the results depend on the processing

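Depth limits these results most in lung, where a sample had as few as 17748 UMIs, and for *Hsph1*, with 1040 UMIs in all. Against 17 member calls between organs over all cells, there were 7 among healthy mice alone and 3 among CIA mice alone, and leaving out each mouse gave 9 (without S2) to 22 (without S3), with 10 without H6 or S5. The mouse as a replicate block gave 17, and other settings 15 to 21. The share of all genes called under each of these settings is not given here. Against 3 calls between organs within cell types, there were 0 with every gene, in CIA mice alone, and with the replicate block or in healthy mice alone, where the granulocyte call was not fitted. DESeq2 gave 5, at least 5 cells per mouse 6, at least 20 cells 5 and leaving out each mouse 0 (without H4) to 4, with 1 without H7. Calls between CIA and healthy mice stayed at 0 over all cells, with the mouse number as a replicate block too, and were 0 to 1 in cell types with each mouse left out. The mouse number is shared between healthy and CIA mice in name only. The interaction stayed at 0 calls under every alternative run. The median log2 ratio over *Hspa8* and *Hsp90ab1* alone was 0.046 in joint, -0.37 in lung, 0.064 in skin and -0.69 in spleen, and without *Hsp90aa1* it was -1.33 in joint, -1.88 in lung, -2.05 in muscle, -1.11 in skin and -2.77 in spleen. Without thinning, the median share of cells with a UMI was 11.6% for *Dnajb1*, 6.51% for *Hsph1*, 33.9% for *Hsp90aa1*, 18.3% for *Hspa8*, 52.9% for *Hsp90ab1*, 33.2% for *Dnaja1*, 17.2% for *Hspe1* and 65.3% for *Hspa5*. Of single calls, 141 were kept and 57 lost when a mouse was left out, and 115 kept and 48 lost under other alternatives, none with the opposite sign.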
